A study of Mus musculus with 19 samples.

Results

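Cultured hippocampal neurons were measured after silencing and after excitation. The genes described here are those that lay on the same side of untreated cells with both treatments. Whether such a difference belongs to the untreated cultures or to treatment in general was not tested. The comparison takes 3 libraries with tetrodotoxin and 3 with bicuculline and 4-aminopyridine as one group of 6 and sets them against 3 untreated libraries. These are 9 of the 19 samples of the series. A gene was described when all 6 treated values lay above all 3 untreated values, or all 6 lay below them. Of 14801 genes tested, 1706 (11.5%) lay above and 2480 (16.8%) lay below, so 4186 genes (28.3%) met the rule.

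All cells came from mouse hippocampus of embryonic day 17 and were kept for 10 days in culture. RNA and histone samples were from ICR mice, and the bisulfite samples used below were from C57BL/6 mice. The untreated group received no drug. The second group received tetrodotoxin (TTX), which closes the sodium channels that carry action potentials, at a dose and for a time that the labels do not state. The third group received 2 drugs for 3 h, written Bic/4AP. Bicuculline removes inhibition through GABA-A receptors and 4-aminopyridine slows repolarisation through potassium channels, so the pair raises firing. Nothing in the labels ties the replicates to different dishes or litters. The p-values therefore speak of the spread among these libraries, which may be technical.

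In neurons, firing lets calcium in, and calcium switches on a first wave of transcription factors and then a second wave of synaptic and secreted proteins. TTX lowers this input and Bic/4AP raises it. A primary hippocampal culture holds neurons with some glia. The choroid plexus, whose genes appear below, is the epithelium of the ventricles that makes cerebrospinal fluid. In bulk RNA, fewer cells of a type and less RNA per cell cannot be told apart.

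The libraries hold an estimated 9678017 to 12643837 reads with TTX, 5634184 to 9974165 untreated and 4338941 to 4590018 with Bic/4AP, recovered from the steps in the values. Values are RPKM, reads per kilobase of gene scaled to the size of the library. Changes are differences of log2(RPKM + 1), which understate the change of low genes. The level that only 0.1% of genes exceeded was lowest in the deepest group. It was 84.5 to 94.6 RPKM with TTX, 90.8 to 120 RPKM untreated and 153 to 158 RPKM with Bic/4AP. The top of the scale thus reached different heights in the 3 groups, and its part in the printed changes of abundant genes was not tested. The neuron list of 16 markers was measured in full. Its members Nefl, Nefm and Nefh, the neurofilament subunits, had untreated means of 50.8, 24.4 and 9.30 RPKM. Of the 16 neuron markers 5 lay higher and 1 lower with both drugs, which became 3 higher and 4 lower after loess normalization.

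The lower genes moved much further than the higher genes. Their median change was -1.07, against 0.50 for the higher genes and 0.06 over all genes tested. The shared change of a gene is the smaller of its changes with TTX and with Bic/4AP. It reached 1 or more in 858 lower genes (5.80% of those tested) and in 60 higher genes (0.405%). A shared change of 2 or more was found in 291 lower genes and 1 higher gene, and one of 3 or more in 106 lower genes. In 65 lower genes all 6 treated libraries were at 0. A total of 433 lower genes entered the test through their untreated level alone, so they could not have been found in the opposite direction.

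With limma, a linear model with moderated errors fitted on all genes, 5124 genes were higher (34.6%) and 4336 lower (29.3%) with the drugs at an adjusted p of 0.05. Of the genes without overlap, 1698 higher and 2466 lower genes were among them. Both readings use the same values, so neither supports the other. Against untreated alone, TTX passed as higher in 40.6% and as lower in 23.5% of all genes tested, and Bic/4AP in 29.6% and 42.5%. Of the genes without overlap, 1523 higher and 2185 lower genes passed with each drug. Both comparisons use the same 3 untreated libraries. When the 6 libraries were fitted as one level, with the difference between the drugs left in the error, 1086 genes passed as higher and 1728 as lower.

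**Figure D1:**
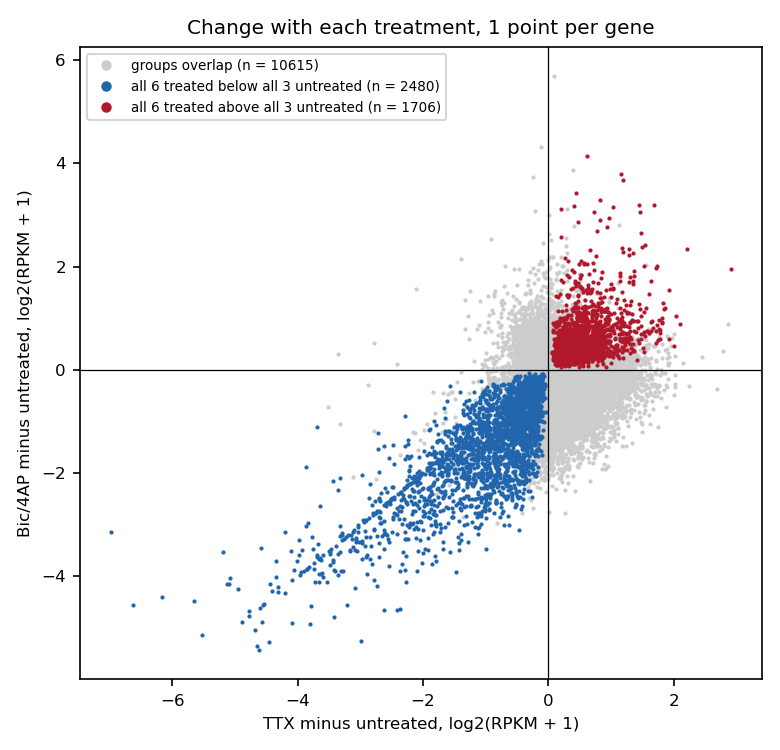
Change with TTX (x axis) and with Bic/4AP (y axis) against untreated for each of the 14801 genes, as differences of mean log2(RPKM + 1). The 2480 blue genes without overlap have a median of -0.73 on the x axis and -1.34 on the y axis, and the 1706 red genes medians of 0.47 and 0.50.

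The drugs also differed from each other in most genes, since TTX against Bic/4AP passed in 76.8% of all genes tested. Of the 2480 lower genes, 1388 were higher with TTX than with Bic/4AP, 148 were lower, and 944 did not pass. The lower genes had a median change of -0.73 with TTX and -1.34 with Bic/4AP. Among the 1706 higher genes, 392 were higher with TTX than with Bic/4AP, 555 were lower and 759 did not pass. Their medians were 0.47 with TTX and 0.50 with Bic/4AP.

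Genes of the choroid plexus epithelium made up 7 of the 10 largest shared losses among genes with a mean of 5 RPKM or more, small RNA and predicted rows aside. All 34 listed genes were tested, 33 lay lower with both drugs without overlap, none lay higher, and all 34 passed the pooled test as lower. Part of this count is fixed by the minimum level. Kcnj13, Kcne2 and Cox8b, for example, entered the test through their untreated level alone and could only be lower. The count was not repeated without such genes, and the list was chosen with earlier results of these data known. The list's median change was -3.64. The exception was Lmx1a, named here after its values were seen, which read 2.55, 3.39 and 3.91 RPKM untreated and 1.73 to 2.68 RPKM in the treated libraries. In 31 genes of the list the groups stayed apart after quantile and after loess normalization.

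The sum of the list was 1133, 849 and 1263 RPKM in the untreated libraries. It was 123, 120 and 106 RPKM with TTX and 91.2, 101 and 108 RPKM with Bic/4AP. Every treated library was thus far below every untreated one, and the untreated mean was 10.0 times the treated mean. The list names markers of one cell type, and whether the cells or their RNA differed between the dishes was not tested.

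Kcnj13, a potassium channel of the choroid plexus, had the largest shared change of the genes named by rule outside the small RNA rows. It read 49.7, 37.2 and 56.4 RPKM untreated, 0.0586, 0.0625 and 0 with TTX, and 0.655, 0.162 and 0.342 with Bic/4AP. Its pooled change was -5.33 ± 0.16 (SE, limma adjusted p = 1.23e-09), and TTX and Bic/4AP did not differ at the threshold (adjusted p = 0.0653). Kcne2, a potassium channel subunit, read 29.5, 22.7 and 35.3 RPKM untreated and at most 0.261 RPKM in a treated library. Both genes were under 1 RPKM in every treated library, so they entered the test through their untreated level alone and could only be lower.

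Several of these genes were low with both drugs and yet differed between them. Ttr encodes transthyretin, the thyroid hormone carrier of cerebrospinal fluid and the classic product of this epithelium. It read 197, 131 and 198 RPKM untreated. With TTX it read 0.648, 0.276 and 0.254 RPKM, and with Bic/4AP 16.5, 18.2 and 21.3 RPKM. The gap between the drugs passed (adjusted p = 8.43e-09), with all 3 Bic/4AP libraries above all 3 TTX libraries.

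The anti-ageing gene Kl, which encodes klotho, fell from 57.4, 42.3 and 65.7 RPKM to 0.560 to 0.603 RPKM with TTX and 1.83 to 2.29 RPKM with Bic/4AP. The chloride channel gene Clic6 fell from 46.0, 34.0 and 51.2 RPKM to 0.275 to 0.338 and 1.30 to 1.79 RPKM. Igf2, the growth factor made by choroid plexus and meninges, fell from 48.8, 35.2 and 53.9 RPKM to 0.354 to 0.578 and 1.18 to 1.59 RPKM. In all 3 the Bic/4AP level was above the TTX level (adjusted p = 1.26e-04, 1.98e-04 and 0.00235). F5, which encodes coagulation factor V, and Mfrp, a membrane frizzled-related protein, fell by 4.35 and 4.07 on the log2 scale, and their TTX and Bic/4AP levels did not differ at the threshold (adjusted p = 0.485 and 0.915).

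The 10 largest losses also held 3 genes that are not on the choroid plexus list. Tnfrsf25, a death domain receptor of the tumor necrosis factor receptor family, read 39.5, 32.0 and 47.8 RPKM untreated and 0.114 to 0.709 RPKM in the treated libraries. Robo3, a receptor of axon guidance, read 21.3, 18.2 and 26.3 RPKM untreated and 0.0461 to 0.318 RPKM treated. Tnfrsf25 and Robo3 were under 1 RPKM in every treated library, so they too could only be lower. Aifm3, a relative of apoptosis-inducing factor, read 48.9, 36.4 and 57.9 RPKM untreated. It kept 1.38 to 2.26 RPKM with TTX and 0.404 to 0.770 RPKM with Bic/4AP, and this gap passed (adjusted p = 0.00180).

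**Figure D2:**
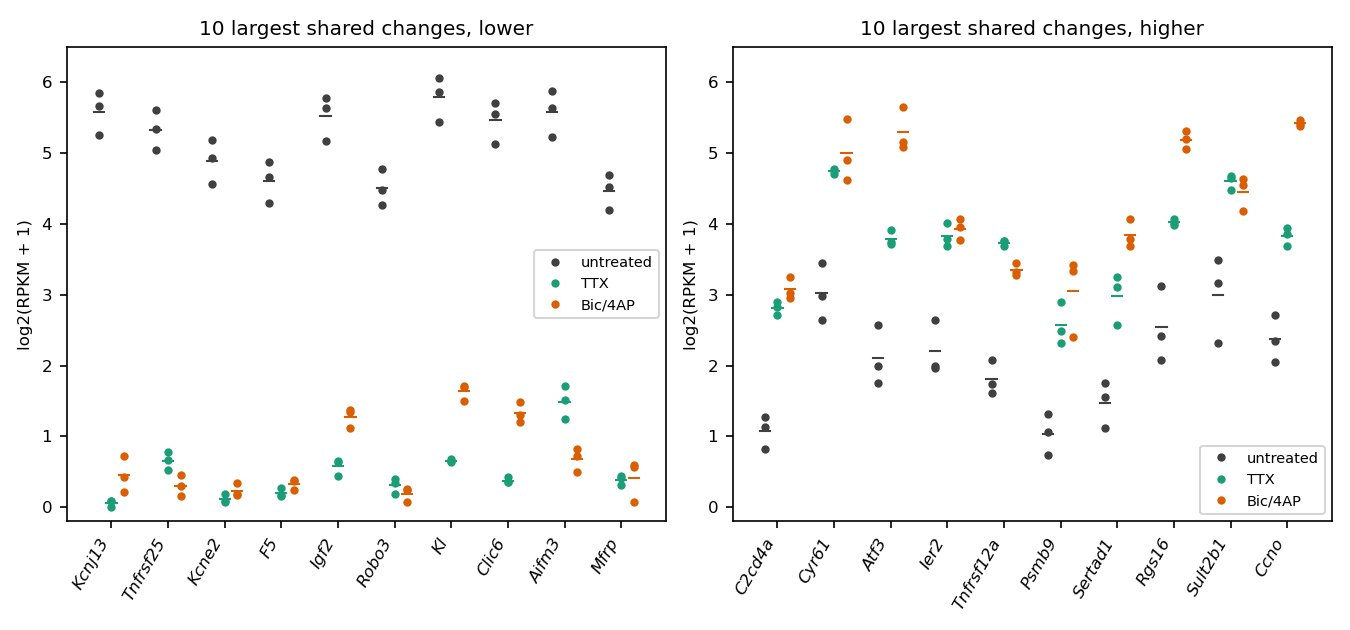
Level in each library, as log2(RPKM + 1), of the 10 genes with the largest shared loss (left) and the 10 with the largest shared gain (right); points are libraries and bars group means. On the left every untreated point lies above 4 and every treated point below 2, and on the right every treated point lies above the untreated points of its gene.

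Markers of other cell types moved in both directions. Of 9 tested genes of multiciliated and ependymal cells, 4 were lower and none higher, although 2 were higher after quantile normalization. Foxj1, the master regulator of motile cilia, read 10.6, 9.18 and 13.7 RPKM untreated, 3.21 to 4.88 with TTX and 2.06 to 3.31 with Bic/4AP. Of 8 erythroid genes, 3 were tested, 2 were lower without overlap, and Hbb-bt was at 0 in all 9 libraries. Their sum was 33.5 to 43.9 RPKM untreated, 11.7 to 13.5 with TTX and 6.58 to 9.99 with Bic/4AP. The beta globin gene Hbb-bs fell from 20.5, 14.7 and 23.7 RPKM to between 1.71 and 3.4 RPKM in the treated libraries.

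The oligodendrocyte lineage divided. Mag, a protein of the myelin sheath, read 1.39, 1.20 and 1.94 RPKM untreated, at most 0.0652 with TTX and 0 in all Bic/4AP libraries. Pdgfra, the receptor of oligodendrocyte precursors, fell from 2.15, 2.11 and 2.16 RPKM to 0.222 to 0.554 RPKM. Mag and Pdgfra were under 1 RPKM in every treated library, so they could only be lower. Olig1, a transcription factor of the same lineage, rose from 4.66, 9.42 and 6.90 RPKM to 24.8, 24.9 and 21.0 with TTX and 12.1, 12.3 and 17.7 with Bic/4AP. In all, 3 of 8 tested genes were lower and 1 was higher, a balance that turned to 2 lower and 4 higher after quantile normalization and to 3 lower and 4 higher after loess.

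No member of the glial, immune, vascular and progenitor lists below was lower without overlap. Higher were 3 of 14 astrocyte genes, 4 of 10 microglia genes, 3 of 11 vascular, mural and fibroblast genes and 4 of 9 progenitor genes. After both normalizations 3, 1, 3 and 2 of them still lay higher, and loess left 1 microglia gene. Gfap, the intermediate filament of astrocytes, rose from 8.41, 12.8 and 9.54 RPKM to 24.6 to 31.4 with TTX and 18.6 to 22.7 with Bic/4AP. Nes, the filament of neural progenitors, read 3.77, 5.73 and 3.47 RPKM untreated, 18, 17 and 14 with TTX and only 5.87 to 7.41 with Bic/4AP. Col1a1, a fibroblast collagen, rose from 1.81, 2.71 and 1.45 RPKM to 10.5 to 12.6 with TTX and 3.83 to 4.87 with Bic/4AP. For Nes and Col1a1 the TTX level was above the Bic/4AP level (adjusted p = 2.87e-05 and 3.32e-05). The untested defining genes of microglia were Cx3cr1, Itgam, P2ry12 and Tmem119.

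Rows that carry small RNA genes were lower more often than other rows, although 2156 of the 2480 lower genes were protein-coding. MicroRNAs are cut from hairpins in longer transcripts and repress messenger RNAs that match their seed, bases 2 to 8. Small nucleolar RNAs (snoRNAs) guide chemical modification of ribosomal RNA, and small Cajal body RNAs (scaRNAs) that of spliceosomal RNA. Most are cut from introns of host genes. Libraries made from poly(A) RNA are not built to capture these small forms, and which RNA gave the reads on such rows was not tested.

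Among 311 tested microRNA rows 138 were lower and 2 higher, and among 88 snoRNA and scaRNA rows 48 were lower and 1 higher. Their median changes were -1.35 and -1.68. After quantile and loess normalization 124 and 40 of the lower rows still lay apart. By RefSeq class, 44.3% of microRNA genes and 47.8% of snoRNA genes lay lower, against 15.8% of protein-coding and 17.7% of long non-coding genes. Part of these shares is fixed by the minimum level, since 64 of the microRNA genes, 7 of the snoRNA genes and 320 of the protein-coding genes entered the test through the untreated libraries alone and could only be lower. Among the remaining genes the lower share was 29.6% for microRNA, 43.4% for snoRNA, 13.8% for protein-coding and 13.1% for long non-coding genes.

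The microRNA losses clustered on chromosome 12, where 40 of 49 tested microRNA genes were lower. Most sit in the imprinted region that holds Dlk1, Meg3, Rian and Mirg. Of these, Meg3, Rian and Mirg are long non-coding RNAs expressed from the maternal chromosome, and many microRNAs lie in this part. Of 40 tested microRNA rows of that region, a set taken after the data were seen, 34 lay lower and none higher, with a median change of -3.09. Rows without reads in any treated library, such as Mir679, Mir668, Mir409 and Mir300, entered the test through their untreated level alone. Such rows could only be lower. Part of the counts on chromosome 12 and in the region is thus fixed by the minimum level. These counts were not repeated without such rows. The sum of all 58 listed microRNA rows of the region was 516, 461 and 622 RPKM untreated, 21.7, 7.55 and 12.5 with TTX and 19.2, 37.5 and 59.3 with Bic/4AP.

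The mature sequences of 4 rows of this region and of Mir137 follow, from RefSeq on GRCm38, because treated libraries held none or nearly none of their reads. Capitals mark the seed. Hairpins lie at chr12:109715577-109715650 (Mir679), chr12:109734732-109734797 (Mir668), chr12:109740510-109740577 (Mir377), chr12:109743158-109743236 (Mir409) and chr3:118433857-118433929 (Mir137), all on the plus strand.
mmu-miR-679-5p: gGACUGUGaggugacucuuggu
mmu-miR-668-3p: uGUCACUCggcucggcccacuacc
mmu-miR-377-3p: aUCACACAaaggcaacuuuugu
mmu-miR-409-3p: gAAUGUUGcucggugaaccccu
mmu-miR-409-5p: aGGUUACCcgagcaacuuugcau
mmu-miR-137-3p: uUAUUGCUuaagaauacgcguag

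Mir679 read 36.0, 23.0 and 28.3 RPKM untreated, which is 15, 17 and 12 reads, and 0 in all 6 treated libraries. Mir668 held 10, 14 and 12 reads untreated and none with either drug. Mir409 held 7, 18 and 16 reads untreated and none with either drug. Mir377 held 15, 21 and 24 reads untreated, 1, 0 and 1 with TTX and none with Bic/4AP. Mir137, a brain microRNA outside the region, held 8, 13 and 8 reads untreated and none in the 6 treated libraries. Mir6516, the other of the 5 largest losses among small RNA rows, held 91 reads untreated and 3 in all treated libraries together. These are small numbers of reads. The TTX libraries hold more reads than untreated libraries 1 and 3, and the Bic/4AP libraries hold fewer than any untreated library. The part of depth in these counts was not tested.

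Different seeds are carried by these rows, and each of the seeds printed above occurs in 1 lower row. RefSeq gave mature sequences for 117 of the 136 lower genes of its microRNA class, and only 11 seeds were shared by 2 or more of these rows. One such pair, Mir3070a and Mir3070b, lies on chromosome 12 and was picked after its values were seen. Its 5p sequences are the same, and its 3p sequences share the seed and differ after it.
mmu-miR-3070-3p (Mir3070a): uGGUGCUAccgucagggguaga
mmu-miR-3070-2-3p (Mir3070b): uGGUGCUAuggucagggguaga

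Of the long RNAs of the region, Meg3 and Mirg were lower without overlap and Rian was not. Meg3 read 98.0, 70.8 and 104 RPKM untreated, 32.4, 23.1 and 33.3 with TTX and 24.7, 28.2 and 40.2 with Bic/4AP, with a pooled change of -1.56 (adjusted p = 6.94e-06). Mirg, which covers Mir377, read 23.6, 21.2 and 29.7 RPKM untreated and 7.76 to 12.8 RPKM treated, a change of -1.26. Rian parted from them, since it read 76.8, 61.2 and 78.7 RPKM untreated, 37.9 to 42.6 with TTX and 79.3 to 82.4 with Bic/4AP. These 3 genes were named after their values were seen.

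Hosts of lower small RNA rows were set beside all genes tested, of which 16.8% were lower, 11.5% higher and the others overlapped. A total of 90 lower microRNA rows lay inside a single tested gene, in 78 hosts. The host was lower for 33 rows, overlapped for 52 and was higher for 5. Counted by row, these hosts were lower in a larger share than all genes tested. The 44 lower snoRNA and scaRNA rows had 39 hosts. There the host was lower for 1 row, overlapped for 32 and was higher for 11. Their overlapping share was near that of all genes tested. Rows that share a host, such as Mir377 and Mir409 in Mirg, count it more than once. Snora74a fell from 70.8, 50.1 and 84.5 RPKM to 0.399 to 1.28 with TTX and 4.40 to 5.82 with Bic/4AP, while its host Snhg4 rose from 15.6, 17.1 and 12.4 RPKM to between 18.6 and 23.0 RPKM. Snora64 lies in Rps2, a ribosomal protein gene that rose from 24.5, 28.8 and 25.6 RPKM to between 33.4 and 47.3 RPKM, and its own shared change was -1.32, with a TTX change that did not pass (adjusted p = 0.0600). Snora64 was picked after its values were seen. Scarna13 fell from 126, 77.7 and 134 RPKM to between 1.88 and 7.54 RPKM, and the values of its host Snhg10 overlapped between the groups.

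Of 18 tested nuclear retained RNAs and snoRNA hosts, 10 were lower, 8 overlapped and none were higher, with 1 higher after either normalization. In the pooled test 12 passed as lower and 3 as higher. Neat1, the scaffold of nuclear paraspeckles, read 24.4, 20.1 and 30.5 RPKM untreated, 1.89, 1.49 and 1.37 with TTX and 0.626, 1.71 and 1.45 with Bic/4AP (change -3.43 ± 0.18 SE, adjusted p = 3.80e-08). Miat fell from 61.0, 45.8 and 68.4 RPKM to between 7.69 and 16.4 RPKM. Rmrp, the RNA of the RNase MRP complex, fell from 181, 116 and 187 RPKM to 19 to 23.3 with TTX and 32.7 to 34.1 with Bic/4AP.

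**Figure D3:**
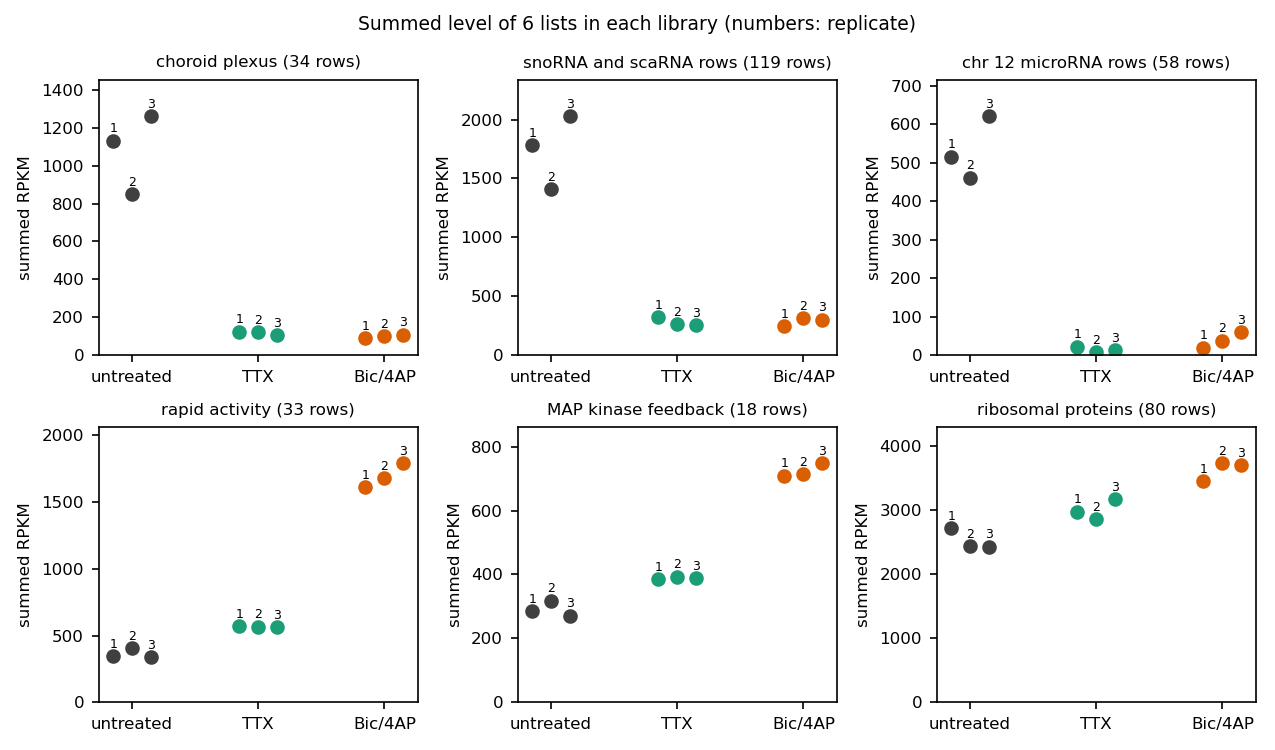
Summed RPKM of 6 gene lists in each of the 9 libraries, with replicate numbers beside the points and axes starting at 0. In the top row every treated point lies far below the untreated points, and in the bottom row the rapid activity list rises from 336 to 405 untreated to 563 to 571 with TTX and 1607 to 1788 with Bic/4AP.

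As deposited, rapid activity genes lay higher in a larger share than any other list of 8 or more tested members. They are transcription factors and regulators known to be induced within minutes of firing. All 33 were tested, 23 (69.7%) lay higher with both drugs, none lay lower, and 31 passed the pooled test as higher. Their median change was 1.21, made of 0.61 with TTX and 1.97 with Bic/4AP. After quantile and after loess normalization 16 of them still lay higher. Bic/4AP thus had the larger part of the change, but TTX levels were above untreated too. After each normalization the MAP kinase feedback genes below had a larger share. Of 18 listed, 12 lay higher after quantile and 11 after loess, against 21 and 18 of the 33 rapid activity genes.

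The genes with the largest shared gain came in part from this list. Atf3, a stress-induced transcription factor, read 2.96, 4.97 and 2.38 RPKM untreated, 14.1, 12.5 and 12.1 with TTX and 32.9, 34.8 and 49.1 with Bic/4AP. Its pooled change was 2.44 ± 0.17 (SE, adjusted p = 2.62e-07). Ier2, an early transcriptional regulator, rose from 2.92, 5.27 and 2.98 RPKM to 11.9 to 15.2 with TTX and 12.6 to 15.7 with Bic/4AP, and the drugs did not differ at the threshold (adjusted p = 0.618). Cyr61, a secreted matrix protein that serum and stretch induce, rose from 6.91, 9.94 and 5.24 RPKM to 26.4, 25.9 and 25.1 with TTX and 23.5, 28.9 and 43.5 with Bic/4AP.

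Fos, the standard marker of neuronal activation, met the rule with unequal parts. It read 8.39, 12.6 and 8.24 RPKM untreated, 14.1, 14.9 and 16.5 with TTX and 180, 179 and 195 with Bic/4AP. The TTX change was 0.61 (adjusted p = 0.00111) and the Bic/4AP change 4.13 (adjusted p = 1.24e-09). Junb rose by 0.96 with TTX and 2.95 with Bic/4AP, and Egr3 by 0.26 and 2.16. The orphan nuclear receptor gene Nr4a2 rose by 0.43 and 3.42.

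Not all activity genes moved together. Arc, a regulator of synaptic strength, passed as lower with TTX and as higher with Bic/4AP. It read 9.69, 8.36 and 11.7 RPKM untreated, 5.33, 5.05 and 3.99 with TTX and 54.0, 58.5 and 73.2 with Bic/4AP. Npas4, a transcription factor that calcium entry switches on, read 6.82, 9.70 and 8.98 RPKM untreated, 6.35, 6.46 and 8.07 with TTX and 117, 121 and 134 with Bic/4AP. Its TTX change of -0.25 did not pass (adjusted p = 0.0796). Both are positive in the pooled contrast because the Bic/4AP gain outweighs the TTX value.

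Of 25 late activity genes, the effectors that follow the first factors, 11 lay higher and none lower. Bdnf, a growth factor of synapses, read 23.5, 23.7 and 21.6 RPKM untreated, 25.6, 27.4 and 28.6 with TTX and 77.4, 76.7 and 78.2 with Bic/4AP. Vgf, a secreted neuropeptide precursor, rose from 18.3, 21.2 and 15.1 RPKM to 43.9, 45.0 and 48.8 with TTX and 63.7, 69.5 and 64.1 with Bic/4AP. Nptx2, a pentraxin that gathers AMPA receptors, rose from 4.66, 5.74 and 4.03 RPKM to 10.7 to 10.8 and 48.6 to 53 RPKM. Vgf rose more evenly than Bdnf, whose TTX change was 0.24.

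MAP kinase feedback genes encode phosphatases and adaptors that switch off the kinase cascade which activity and growth factors share. Of 18 listed, 11 lay higher and none lower, and 10 did so under each of the 3 scalings. Dusp1, a phosphatase of stress kinases, read 15.4, 18.0 and 13.4 RPKM untreated, 22.4, 23.2 and 22.6 with TTX and 69.5, 73.5 and 68.4 with Bic/4AP. Errfi1, an inhibitor of the EGF receptor, read 20.2, 22.7 and 18.0 RPKM untreated, 25.9, 25.5 and 24.4 with TTX and 85.5, 85.3 and 102 with Bic/4AP. Dusp4 and Dusp14 rose by 0.74 and 0.57 with TTX and by 1.94 and 2.05 with Bic/4AP.

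The 250 bases before a RefSeq start site of Dusp1 and of Errfi1 each hold the letters TGACGTCA, the palindromic cAMP response element bound by CREB, which read the same on both strands. These stretches are printed because both genes hold the element and rose with each drug. Ldha and Tubb2a, also among the named higher genes, hold it too and are not printed. RefSeq positions on GRCm38 are chr17:26508473-26508722, minus strand, for Dusp1 and chr4:150854820-150855069, plus strand, for Errfi1. Errfi1 has more than 1 start site in RefSeq, and the one used lies inside the span of the gene, which begins at 150853796. Capitals mark the element.
Dusp1: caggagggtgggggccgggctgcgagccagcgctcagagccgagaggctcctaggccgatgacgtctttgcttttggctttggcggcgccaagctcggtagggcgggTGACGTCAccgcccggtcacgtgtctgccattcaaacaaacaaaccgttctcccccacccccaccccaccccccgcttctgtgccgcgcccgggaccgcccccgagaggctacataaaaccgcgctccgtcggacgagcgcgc
Errfi1: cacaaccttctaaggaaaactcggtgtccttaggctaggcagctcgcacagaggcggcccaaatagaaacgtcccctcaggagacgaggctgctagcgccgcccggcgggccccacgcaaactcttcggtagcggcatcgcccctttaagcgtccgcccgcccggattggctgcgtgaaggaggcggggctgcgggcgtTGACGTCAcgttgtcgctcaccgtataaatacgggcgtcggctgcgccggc

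This element was found in 4.98% of 1326 higher genes with a promoter in the table, 2.45% of 1796 lower genes, 3.02% of all 11311 tested genes and 1.77% of all 27025 promoters. The AP-1 letters TGANTCA, searched on both strands, were in 6.41% of higher and 5.96% of lower genes, 5.36% of tested genes and 7.82% of all promoters. Of 26 rapid activity genes with a promoter, 3 held the cAMP response element and 0 the AP-1 letters. A match is a description of letters and not a bound site.

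Other genes with a large shared gain lie outside the activity lists. C2cd4a, a C2 domain protein that inflammation induces, read 1.18, 1.41 and 0.773 RPKM untreated, 5.56, 6.11 and 6.42 with TTX and 8.5, 6.77 and 7.16 with Bic/4AP (change 1.87 ± 0.13 SE, adjusted p = 3.48e-07). Tnfrsf12a, the receptor of TWEAK, rose from 2.33, 3.22 and 2.05 RPKM to 11.9 to 12.5 with TTX and 8.71 to 9.97 with Bic/4AP. Sertad1, a cell cycle regulator, rose from 1.94, 2.36 and 1.17 RPKM to 4.96 to 8.52 and 11.8 to 15.8 RPKM. Ccno, a cyclin, rose from 4.07, 5.56 and 3.16 RPKM to 11.9 to 14.4 and 40.9 to 43.3 RPKM. Rgs16, which shortens G protein signals, rose from 4.33, 7.73 and 3.21 RPKM to 14.9 to 15.9 and 32.2 to 38.6 RPKM. Psmb9, a subunit of the immunoproteasome, rose from 0.661, 1.49 and 1.08 RPKM to between 3.97 and 9.73 RPKM. The sulfotransferase gene Sult2b1 rose from 7.97, 10.2 and 3.99 RPKM to between 17.2 and 24.6 RPKM.

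Part of each stress list lay higher. Higher were 7 of 22 integrated stress response genes, 6 of 14 oxidative stress genes, 5 of 20 hypoxia and glycolysis genes, 5 of 15 p53 targets and 5 of 18 heat shock genes. Lower were 0, 1, 0, 1 and 2 of them. Of all genes tested 11.5% lay higher and 16.8% lower. Under all 3 scalings 6, 3, 5, 4 and 4 genes of these lists lay higher. Sesn2, a stress-induced inhibitor of mTORC1 signalling, rose from 9.76, 12.2 and 7.94 RPKM to 22.5 to 23.5 with TTX and 18.1 to 19.5 with Bic/4AP. Adm, the vasodilator adrenomedullin and a target of hypoxia, rose from 1.16, 2.18 and 1.64 RPKM to 7.93 to 8.80 and 4.16 to 6.51 RPKM. Srxn1, which repairs peroxiredoxins, rose by 0.67 with TTX and 1.49 with Bic/4AP. The inhibitor of cell division Cdkn1a rose by 0.59 and 1.35.

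Heat shock genes moved in both directions. Hspa1a, an inducible HSP70 gene, rose from 4.69, 4.44 and 3.49 RPKM to 11.5 to 13.1 with TTX and 5.61 to 5.76 with Bic/4AP. Its near-identical copy Hspa1b rose by 0.78 and 0.64, and reads of the copies may not be separable. Hsf1, the factor that drives these genes under heat, fell from 26.1, 24.3 and 27.5 RPKM to 16.4 to 20.2 with TTX and 6.85 to 7.78 with Bic/4AP.

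Clock and glucocorticoid genes moved in both directions. Of 20 clock genes 6 lay lower and 2 higher, and after quantile normalization 3 lay lower and 2 higher. Per3, a repressor of the clock, fell from 18.9, 17 and 24.4 RPKM to 2.67 to 3.37 with TTX and 2.12 to 3.06 with Bic/4AP (change -2.44 ± 0.14 SE, adjusted p = 6.18e-08), and TTX and Bic/4AP did not differ at the threshold (adjusted p = 0.376). Nfil3, which represses clock output genes, rose from 19, 21.2 and 16.2 RPKM to 32.7 to 37.1 and 69.1 to 75.7 RPKM. Of 12 glucocorticoid targets 6 lay higher and 3 lower. Zbtb16 fell by 0.91 with TTX and 1.4 with Bic/4AP, while the metallothionein gene Mt2 rose by 0.50 and 0.69.

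Ribosomal protein genes that rose did so by small steps. Of 78 cytosolic ribosomal protein genes, 33 (42.3%) lay higher and none lower, and 75 passed as higher, with a median change of 0.36. After quantile and loess normalization 20 still lay higher. Rpl7a rose from 19.9, 23.2 and 20.6 RPKM to 34.1 to 37.9 with TTX and 29.7 to 33.6 with Bic/4AP. Ribosomal protein genes have many processed copies in the genome, so reads may be shared with these. Of 78 oxidative phosphorylation genes 19 lay higher and 1 lower, and 8 still lay higher after both normalizations. Their sum of 3524 to 3928 RPKM with TTX overlapped the untreated sum of 3071 to 3579 RPKM. The lower one was Cox8b, which also stands on the choroid plexus list, and it fell from 7.33, 6.63 and 11.5 RPKM to at most 0.697 RPKM. Being under 1 RPKM in every treated library, it could only be lower. Of 21 cholesterol synthesis genes 5 lay higher and none lower, which became 3 higher after quantile normalization, with Fdps, which makes farnesyl diphosphate, rising by 0.53 and 0.65.

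Synaptic and channel genes leaned to the lower side. Of 53 excitatory synapse genes 18 (34.0%) lay lower and 5 higher, and 17 of the lower genes did so under each scaling. Grin2a, the NMDA receptor subunit that rises as synapses mature, read 54.8, 45.4 and 59.8 RPKM untreated, 24.8, 26.3 and 25.1 with TTX and 23.6, 25.9 and 26.1 with Bic/4AP. Its change was -1.04 ± 0.07 (SE, adjusted p = 3.61e-07), and the drugs gave nearly the same levels (TTX against Bic/4AP adjusted p = 0.901). Grm7, a presynaptic glutamate receptor, fell from 43.3, 39.8 and 46.9 RPKM to 23.9 to 25.1 with TTX and 11.4 to 14.2 with Bic/4AP. Cacng8, an AMPA receptor partner, fell from 34.6, 29.3 and 42.3 RPKM to 23.4 to 25.1 and 7.01 to 7.53 RPKM. Against this direction Lrrtm1, an adhesion protein that organises synapses, rose from 21.9, 25.8 and 21.3 RPKM to 39.1 to 39.8 and 43.0 to 51.4 RPKM.

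Of 37 voltage-gated channel genes 13 (35.1%) lay lower and 1 higher. Cacna1h, a T-type calcium channel, fell from 41.6, 33.4 and 48.0 RPKM to 15.3 to 17.6 with TTX and 5.04 to 6.87 with Bic/4AP. The P/Q-type channel gene Cacna1a and the L-type gene Cacna1d fell by 0.97 and 1.11 with TTX and by 1.22 and 1.68 with Bic/4AP. Kcnq5, a subunit of the M current, was the gene that lay higher, from 30.6, 34.3 and 31.6 RPKM to between 35.0 and 37.6 RPKM.

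Inhibitory synapse genes were near the background, with 3 of 22 lower and 1 higher. The chloride transporter gene Slc12a2, which loads chloride into young neurons, fell from 31.6, 26.6 and 35.1 RPKM to 13.1 to 13.7 with TTX and 15.5 to 18.3 with Bic/4AP. Slc12a5, which removes chloride, fell from 42.4, 37.6 and 46.7 RPKM to 32.7 to 33.7 and 22.9 to 23.7 RPKM. Slc32a1, the vesicular GABA transporter, rose from 15.1, 18.9 and 10.2 RPKM to 34.7 to 38.3 and 30.6 to 34.0 RPKM.

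RNA processing and interferon genes close the lists. Of 29 splicing factors 8 lay lower and none higher, with a list median of -0.16, and 16 lay lower after quantile and 12 after loess normalization. Clk2, a kinase of splicing factors, fell from 24.7, 23.2 and 29.0 RPKM to 12.9 to 14.8 with TTX and 6.68 to 7.37 with Bic/4AP. Of 12 interferon genes 3 lay lower and 1 higher, which became 3 and 5 after quantile normalization and 3 and 3 after loess. Bst2, the antiviral tetherin, fell from 9.04, 9.55 and 11.8 RPKM to 2.16 to 4.23 and 0.569 to 1.5 RPKM, while Ifitm3 rose from 10.1, 18.4 and 12.9 RPKM to between 22.2 and 29.5 RPKM. Predicted Gm and Rik rows, 1020 in number, gave 161 lower and 85 higher, which turned to 117 and 236 after quantile and to 130 and 165 after loess normalization.

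**Figure D4:**
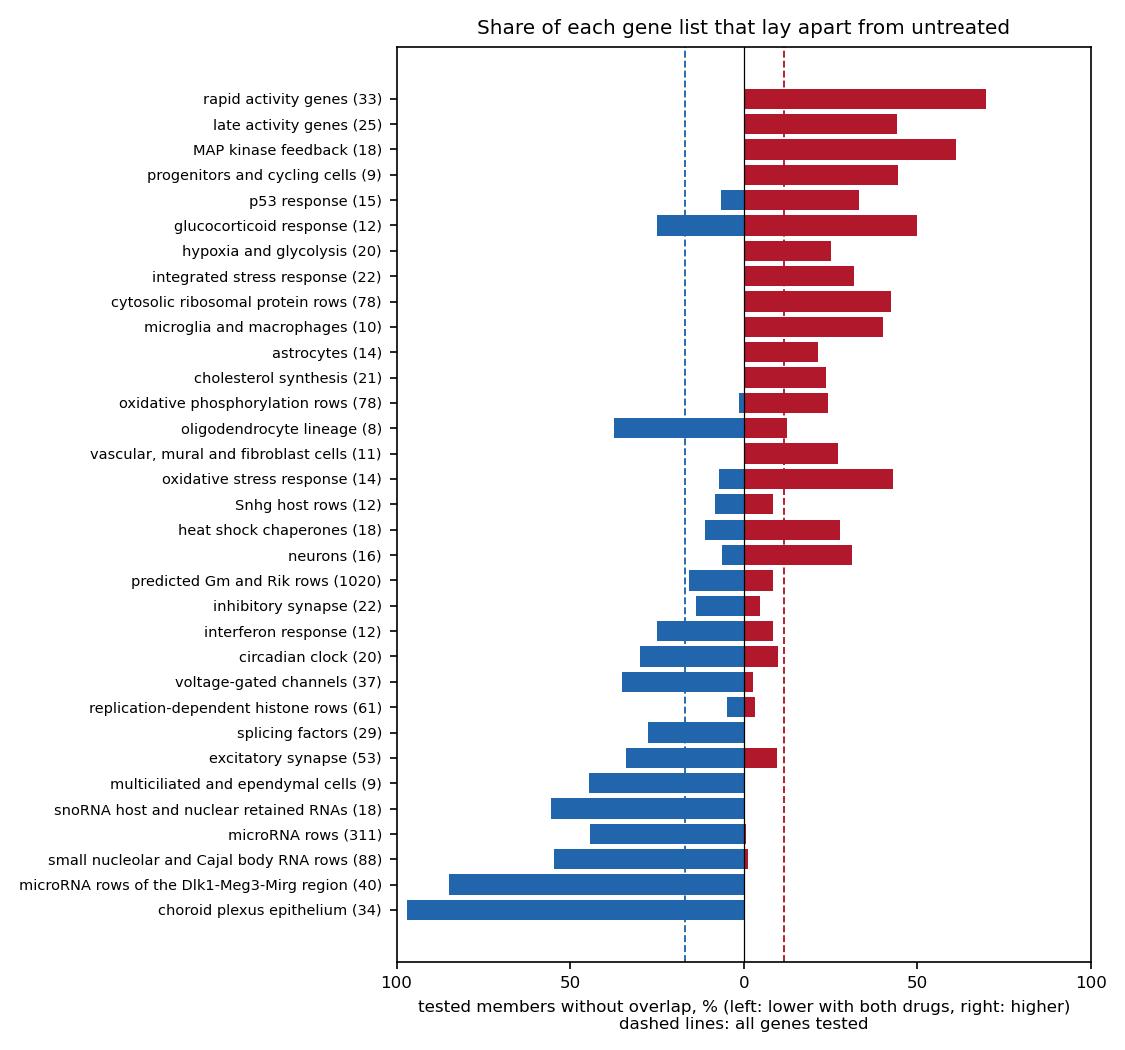
Share of the tested members of each list that lay above (red, right) or below (blue, left) untreated with both drugs, for lists with 8 or more tested members (number in brackets), ordered by median change. Dashed lines mark all genes tested, 11.5% higher and 16.8% lower. The choroid plexus list reaches 97.1% lower, part of it fixed by the minimum level, and the rapid activity list 69.7% higher.

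The level of a gene went with direction. Across 10 classes of mean level, the share of genes without overlap on the lower side fell from 33.9% in the lowest class to 2.03% in the highest. The low end is partly fixed by the minimum level, since 366 genes of the lowest class and 65 of the next entered through the untreated libraries alone. Without them the lower share was 12.2% in the lowest class, 24.5% in the next and 22.7% in the third. On the higher side it rose from 3.24% in the lowest class to 26.4% in the ninth and was 20.7% in the tenth. Genomic span went with direction too. Among protein-coding genes the median span was 39.6 kb for lower, 15.7 kb for higher and 25.0 kb for all tested. From the shortest to the longest of 5 equal classes, the higher share fell from 19.7% to 7.39% and the lower share rose from 9.92% to 24.6%. The spans were not compared without the 320 protein-coding genes that entered through the untreated libraries alone.

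**Figure D5:**
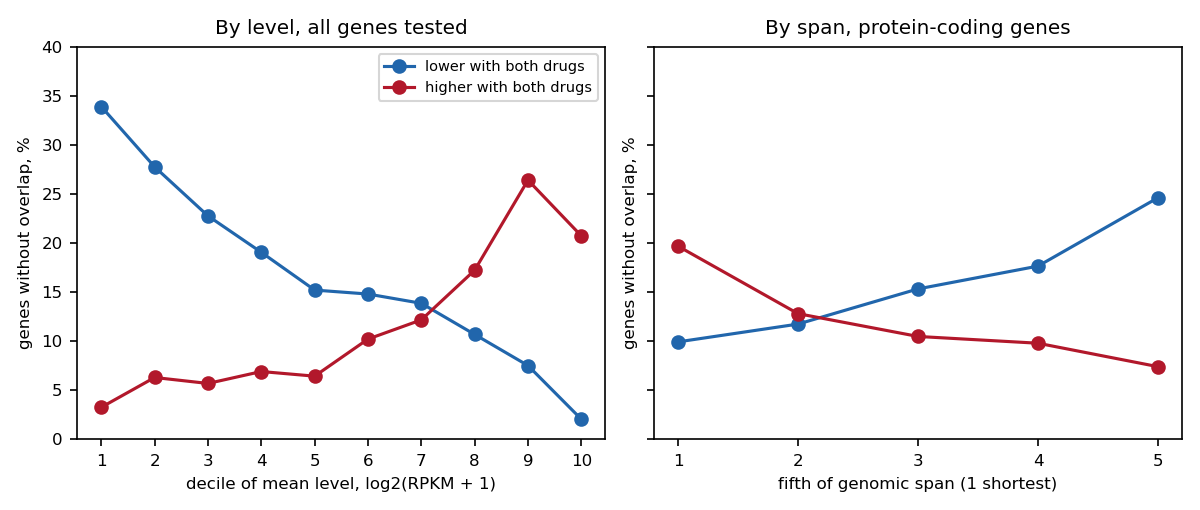
Percent of genes without overlap, lower (blue) or higher (red) with both drugs, across 10 classes of mean level over all 9 libraries (left) and 5 classes of genomic span of protein-coding genes (right). The lower share drops from 33.9% (12.2% without genes that entered through untreated libraries alone) to 2.03% with level and climbs from 9.92% to 24.6% with span.

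Chromatin at the start sites was read from other samples and was not part of the rule. H3K27ac marks active promoters and enhancers, and peaks were the authors' lists, 2 untreated and 2 Bic/4AP. Within 1 kb of the start site, 48.5% of higher, 36.4% of lower and 43.9% of all tested genes had a peak in the larger untreated list. In the larger Bic/4AP list the shares were 66.0%, 44.5% and 56.9%. In the smaller lists they were 14.9%, 11.9% and 14.9% untreated and 37.1%, 25.7% and 32.3% with Bic/4AP. Lower genes thus had the smallest share in each of the 4 lists. The lower group includes genes that entered the test through the untreated libraries alone, and lower genes were more frequent at low levels. The shares were not repeated without such genes, and the part of level in them was not tested. The lists hold 4846 and 49701 peaks untreated and 7721 and 55035 with Bic/4AP, and no list exists for TTX here, so the treatments were not compared.

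CpG methylation was read at the start sites of protein-coding genes only, over 10 or more CpGs within 1 kb. In the untreated library its median was 8.69% in 1692 lower, 5.51% in 1286 higher and 6.40% in all 10725 such genes tested. Methylation exceeded 50% in 12.2% of these lower, 4.28% of the higher and 6.28% of all these genes. Medians of the lower genes were 8.60% in both the TTX and the Bic/4AP libraries. There is 1 library per treatment and the depth behind each value is unknown, so no test was made. These values too were not repeated without genes that entered through the untreated libraries alone, and the part of level was not tested.

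Few choroid plexus genes had a peak, and many were methylated, at their start sites. Of the list's 28 genes with a start site, 0 and 3 had a peak in the untreated lists and 0 and 2 in the Bic/4AP lists. Their median methylation stood at 33.0% in the untreated, 31.9% in the TTX and 32.8% in the Bic/4AP library, and 11 of 27 genes exceeded 50%. Other lists reached further, with medians of 76.3% for 6 microglia genes and 49.2% for 9 interferon genes, and the 5 oligodendrocyte genes had no peak in any list. At Kcne2 the methylation level stood at 79.0% in the untreated, 77.7% in the TTX and 73.5% in the Bic/4AP library. Kl stood at 8.69%, 9.72% and 8.21%. RNA and methylation come from different strains.

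Rapid activity genes had more peaks and less methylation. Of 26 with a start site, 5 and 14 had a peak in the untreated lists and 13 and 23 in the Bic/4AP lists, and the median methylation was 2.41% untreated, with no gene above 50%. At Fos a peak lay within 1 kb in both Bic/4AP lists and within 5 kb in the smaller untreated list as well, and at Dusp1 one lay within 1 kb in all 4 lists. The start site of Fos was methylated at 0.576% untreated, 0.781% with TTX and 0.908% with Bic/4AP.

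One untreated library lay nearer to the treated ones than the others. Untreated library 2, the deepest of the 3, was the highest untreated value in 70.0% of the higher genes, against 53.2% of all genes tested. It was the lowest untreated value in 60.7% of the lower genes, against 26.1% of all. Its choroid plexus sum of 849 RPKM was the lowest of the untreated group. Without it, 3032 genes lay higher and 2745 lower, so the higher count grew by more than 1.5 times. The part of depth in this order was not tested.

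The edge of the rule lay close to its members. Just inside it, Tubb2a, a beta tubulin, read 79.5 to 96.7 RPKM untreated and 96.7 to 129 RPKM treated. Arrb2, Srsf1 and Nnt were the nearest genes inside on the lower side, with treated maxima of 28.7, 40.7 and 11.9 RPKM against untreated minima of 28.7, 40.8 and 11.9 RPKM. Just outside, Fbl read 19.4 to 22.1 RPKM untreated and 22 to 29 RPKM treated. Xpo7 read 11.8 to 12.5 RPKM untreated and 10.9 to 11.8 RPKM treated. Such genes differ by amounts that a single library decides.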

How the data were processed

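RNA from 9 libraries was measured as poly(A) RNA with a directional kit, per the labels' protocols. The deposited expression values were taken as RPKM, from their steps of whole reads, with 1 value per gene and library. Per the submitters' processing notes the tools included Bowtie2 2.2.4, TopHat, MACS 1.4.1 and SAMtools 0.1.19, with build mm10. No source used here states strand use or duplicate removal. Therefore overlapping and antisense genes cannot be told apart. The deposited methylation values are a fraction per CpG without coverage, and the deposited peak lists carry the authors' score per peak and stand 1 per sample.

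Of 24062 lines, 27 carry names turned into dates and 4 with repeated names were dropped. Values became log2(RPKM + 1). Genes at 1 RPKM or more in 3 of 9 libraries (14801) were fitted in R 4.3.3 by limma 3.58.1 with a mean-variance trend, treatment as a term of 3 levels, the contrast mean of both drugs minus untreated, and Benjamini-Hochberg adjustment over all genes tested at 0.05. Every adjusted p in the text is from this fit, and the script was tested on simulated data. Library sizes came from microRNA rows, where 88.0% to 92.5% of low values were whole within 0.1 read.

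Of the gene names tested, 13924 matched a RefSeq symbol and 796 a synonym of GRCm38.p6, and 11319 had a start site. Genes were named by rule: the 10 largest shared changes per direction with a mean of 5 RPKM, the 5 largest small RNA rows, up to 3 genes per list and direction by p, Fos, Arc, Npas4 and Bdnf, and the 3 genes nearest to each side of the edge. Members and lists were chosen with earlier results of these data known. A name class of antisense rows was left out because its pattern also matched ordinary symbols. Alternatives were other pseudocounts, filters, normalizations, a replicate block, fewer treatment levels, no trend, each library left out and a 5 kb peak window. H3K4me1 lists were not used. The values of 1 gene that met the naming rule are not reported here.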

Additional observations from a re-analysis of the deposited data

Results flagged for a closer look

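In 4 named genes, 1 of the 6 treated libraries stood further from its nearest neighbour than Dixon's 95% critical value allows, as a share of the whole range on the log2 scale. Chance gives this in about 1 in 20 groups, and the 6 libraries hold 2 treatments. Neat1 read 0.626 RPKM in Bic/4AP library 1, below the others. Gm14827 read 0.522 RPKM in Bic/4AP library 3, above the others. Cyr61 read 43.5 RPKM in the same library and Fbl 29.0 RPKM, each above the other treated libraries.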

How the results depend on the processing

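Most alternatives drop genes or libraries or change only the fit, so a gene still tested could not leave its side. Only quantile and loess normalization could move genes, and they kept 3181 and 3129 of the 4186 genes without overlap. They kept 1146 and 1039 of the 1706 higher genes and 2035 and 2090 of the 2480 lower genes, and none turned to the opposite side. Under all 3 scalings 1014 higher and 1999 lower genes lay apart. Quantile normalization gave 2951 higher genes without overlap and 2731 lower, so 51.9% were higher against 40.8% as deposited. It also gave 2586 higher genes that passed in both treatments, 1675 higher genes that passed between the drugs and 203 with a shared gain of 1 or more. Loess normalization gave 104 with such a gain. Pseudocount 0.1 gave 152 such gains, and pseudocount 5 gave 11 gains and 360 losses. A minimum of 5 RPKM left 500 losses of 1 or more. Asking for a shared change of 1 left 60 higher and 858 lower genes. With 2 levels 1086 genes passed as higher and 1728 as lower, since the difference between the drugs then counts as error.

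Leaving out each library in turn gave 4175 to 5760 higher and 4038 to 4275 lower genes that passed, and 1744 to 3032 higher and 2511 to 2745 lower genes without overlap. Those that passed in both treatments were 1277 to 2375 higher and 1963 to 2297 lower, those that passed between the drugs 840 to 2020 and 1436 to 1804, and those with a shared change of 1 or more 41 to 141 and 785 to 940. The highest value of each pair came without untreated library 2, except for the lower genes that passed, where it came without Bic/4AP library 3.

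Replicate numbers did not pair the libraries: correlations of deviations between libraries of the same number ran from -0.173 to 0.0435, and 0 of 9 exceeded 0.1. With the replicate number as a block, 5074 genes passed as higher and 4269 as lower. Of 158 named genes tested, Mtfr1l changed sign, from 0.13 to -0.00062 after loess, and 71 results over all genes and settings no longer passed, 41 of them with 2 levels.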
